A study of Homo sapiens with 7 samples.

Results

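Broad SP1 ChIP-seq peaks of low score in HCT116 cells were examined for the transposon insertions that an SP1 fusion transposase left in and around them. They were chosen from the peak list by a score below a limit that lies just above the median score of the list, 384.88, and by a width between fixed limits, and 1359 of the 27015 peaks (5.03%) met both conditions. They covered 1.95 Mb of hg18, 7.50% of all sequence inside peaks. Score and width came from the ChIP-seq peak list itself, so their values are a description. The median score of these weak broad peaks was 293.61, within a range of 200.23 to 384.9, and their median width was 1377 bp, with quartiles of 1247 and 1592 bp and a largest width of 1998 bp. The score is the authors' own value from the peak caller, and weak refers to this score alone.

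HCT116 is an established human colon carcinoma cell line. The 5 insertion libraries all came from HCT116 cells that had received a piggyBac (PB) transposon and were selected with G418. In 2 libraries the transposon was moved by the piggyBac transposase fused to SP1 (SP1_PB), and in 3 libraries by the wild-type transposase (WT_PB). Whether the replicates are separate cultures is not in the labels. A p-value over libraries here therefore reflects the spread among these 5 libraries, and that spread may be technical. The SP1 peaks came from 1 ChIP-seq sample, and 1 RNA-seq library of the line was also given.

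SP1 recognises GC-rich boxes, common in promoters, through its zinc fingers. The piggyBac transposase inserts its transposon at TTAA sites. A DNA-binding protein fused to it leaves such insertions, called calling cards, near the places that the protein has visited, while insertions of the unfused transposase show where the transposon goes without that protein. ChIP-seq reads the same binding through an antibody, and a peak caller scores each stretch of enriched sequence. A broad peak with a low score is therefore a long stretch with modest evidence in the antibody assay, and calling cards give an independent reading of it.

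The number of distinct positions was 18856 and 14467 in the SP1_PB libraries, on 904125 and 1004964 reads, and 57419 to 67423 in the WT_PB libraries, on 1030567 to 2439456 reads. Each distinct position counted once, whatever its reads. The SP1_PB libraries shared 2913 identical positions, which was 15.4% of replicate 1 and 20.1% of replicate 2. Positions no more than 3 bp apart, closer than separate TTAA motifs can start, were merged as an alternative. This took away 12.1% of the SP1_PB positions of replicate 1, 16% of those of replicate 2, and 4.14% to 5.43% of the WT_PB positions. In the RNA-seq library 6 of 11 colon epithelial marker genes stood at 1 RPKM or more, among them KRT19 at 543 RPKM and EPCAM at 79.5 RPKM. The other 5, KRT20, VIL1, CDX1, LGALS4 and CEACAM5, lay at or below 0.238 RPKM. Of the genes of other cell types, COL1A1, a fibroblast collagen gene, stood at 14.5 RPKM, while the other 2 fibroblast genes and all blood, endothelial and liver genes checked lay below 1 RPKM. SP1 itself stood at 48.0 RPKM, so RNA of the cells' own SP1 was present.

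Inside the weak broad peaks the SP1 fusion left a far larger share of its insertions than the wild-type transposase did. There were 274 and 214 positions inside them in the SP1_PB libraries, which was 1.45% (95% Wilson interval 1.29 to 1.63) and 1.48% (1.3 to 1.69) of each library. The WT_PB libraries had 78, 90 and 72 positions there, or 0.133%, 0.133% and 0.125%. Both SP1_PB libraries thus lay far above all 3 WT_PB libraries, and the libraries of each group lay close together. The mean share was 1.47% ± 0.0185 in SP1_PB (SD, n = 2 libraries) and 0.130% ± 0.00442 in WT_PB (SD, n = 3 libraries). The ratio of the pooled shares was 11.2 with a 95% interval of 9.61 to 13.1 for counting error, and it ran from 10.9 to 11.8 over the 6 pairs of libraries. The exact permutation test over the 5 libraries (two-sided) gave p = 0.1, and with 10 possible splits it cannot go lower.

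The excess continued around the peaks. Within 1 kb of a weak broad peak, the inside included, lay 508 and 369 SP1_PB positions and 265, 290 and 257 WT_PB positions. These were 2.62% ± 0.101 of SP1_PB positions (SD, n = 2) and 0.443% ± 0.0110 of WT_PB positions (SD, n = 3), a ratio of 5.95 (5.42 to 6.55). In the flanks alone, meaning up to 1 kb from an edge and inside no peak of the list, the ratio was 3.53 (3.10 to 4.03). The SP1_PB share of the flanks was 1.17% in replicate 1 and 0.968% in replicate 2, against 0.291% to 0.315% in WT_PB. In both places every SP1_PB library lay above every WT_PB library, with an exact permutation p = 0.1 for each.

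To set peaks of different total length side by side, counts were expressed as a density, in positions per Mb of sequence and per 10000 positions of the library. Inside weak broad peaks the SP1_PB density was 74.4 and 75.7 in the 2 libraries, against 6.79, 6.83 and 6.42 in the WT_PB libraries. Over all peaks of the list the mean density inside was 85.1 ± 1.37 for SP1_PB (SD, n = 2) and 7.50 ± 0.464 for WT_PB (SD, n = 3), with a ratio of 11.3 (10.9 to 11.8). Inside, the weak broad peaks therefore had close to the same SP1_PB over WT_PB ratio as the whole list, to which they also belong. Within 1 kb the ratio was 5.95 (5.42 to 6.55) at weak broad peaks and 5.23 (5.13 to 5.34) over all peaks. In the flanks it was 3.53 (3.10 to 4.03) against 3.24 (3.15 to 3.33). The weak broad peaks held 6.63% and 6.60% of the SP1_PB positions inside any peak, and 6.33%, 7.09% and 6.65% of those of the WT_PB libraries. All 5 shares were below their 7.50% of the sequence.

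**Figure D1:**
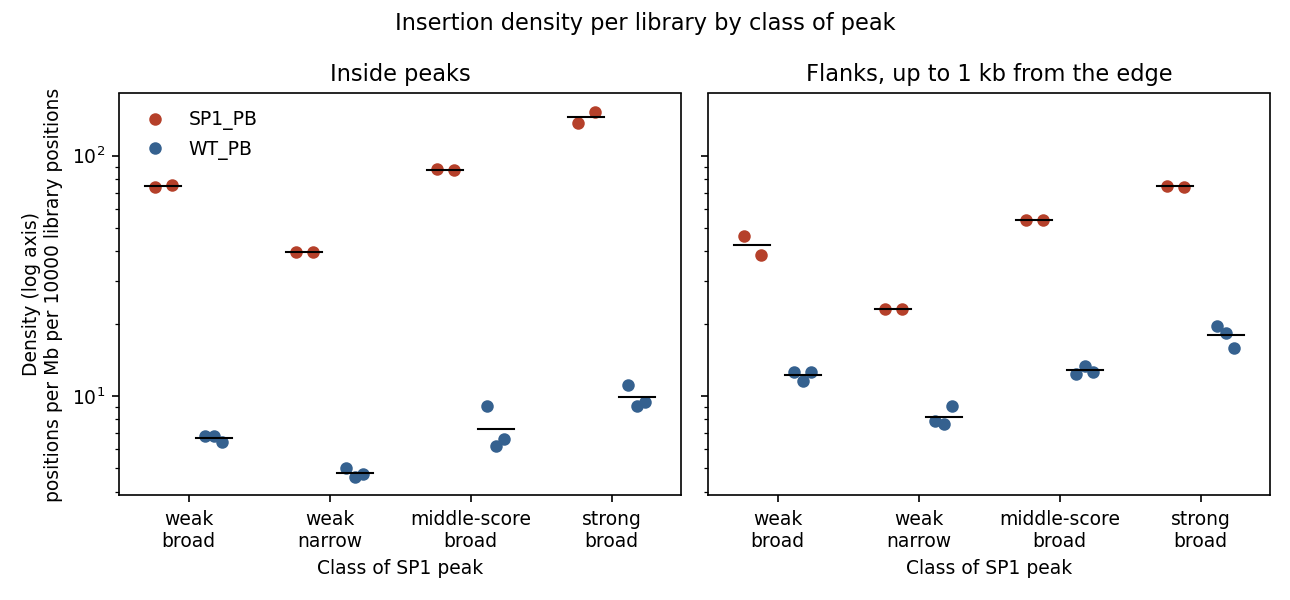
Density of insertion positions per library (log axis, positions per Mb per 10000 library positions) inside 4 classes of SP1 peaks and in their flanks, with SP1_PB left of WT_PB, 1 point per library and the mean as a line. Inside weak broad peaks both SP1_PB libraries lie near 75, above weak narrow peaks and below strong broad peaks, and the WT_PB libraries lie between 6.42 and 6.83.

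Broad peaks within the same limits of width but with scores above 596.77, called strong broad peaks here, numbered 2921 and had a median width of 1414 bp. For the SP1 fusion the density inside weak broad peaks was 0.544 and 0.497 times theirs, and the density of the wild-type transposase was lower as well. The mean SP1_PB density was 75.1 ± 0.945 in weak broad and 145 ± 11 in strong broad peaks (SD, n = 2). The mean WT_PB density was 6.68 ± 0.227 in weak broad and 9.86 ± 1.1 in strong broad peaks (SD, n = 3). Weak broad over strong broad density came to 0.544 (0.476 to 0.621) and 0.497 (0.428 to 0.577) in the SP1_PB libraries. In the WT_PB libraries it was 0.610, 0.756 and 0.681, each with an interval that stayed below 1. In all 5 libraries, of either transposase, the weak peaks thus took fewer insertions per bp than the strong ones.

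The SP1_PB over WT_PB ratio was lower at weak broad than at strong broad peaks, at 11.2 (9.61 to 13.1) against 14.6 (13.5 to 15.9). The first was 0.767 times the second, with a counting interval of 0.644 to 0.915. Both SP1_PB libraries had a lower weak over strong density than any WT_PB library, but the exact permutation test gave p = 0.2, since another split of the 5 libraries separated the means as far. With positions within 1 kb the same factor was 0.799 (0.717 to 0.890), with exact permutation p = 0.1. With the lower score limit of 300 for weak peaks the libraries of both groups overlapped in the comparison inside peaks, at a factor of 0.819 (0.645 to 1.04). Weighting the strong peaks to the widths of the weak ones left the factor inside peaks at 0.774 (0.636 to 0.943).

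Broad peaks of scores between these limits, 1528 in number, lay between the weak and the strong ones. Their SP1_PB over WT_PB ratio inside was 12.1 (10.5 to 13.8), and the ratio of weak broad peaks was 0.930 times it (0.756 to 1.14, exact permutation p = 0.7). Within 1 kb the factor was 0.874 (0.769 to 0.993, exact permutation p = 0.1). Both SP1_PB libraries had the lower density inside weak broad peaks, with a mean of 75.1 ± 0.945 in weak broad and 87.4 ± 0.844 in middle-score broad peaks (SD, n = 2), and the WT_PB libraries of both classes overlapped.

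Width went with the density at low score. The 11895 peaks below the same score limit and narrower than the weak broad peaks, called weak narrow here, with a median width of 638 bp, were set beside them. The mean SP1_PB density inside was 75.1 ± 0.945 in weak broad and 39.7 ± 0.214 in weak narrow peaks (SD, n = 2). The WT_PB density was 6.68 ± 0.227 in weak broad and 4.79 ± 0.221 in weak narrow peaks (SD, n = 3). Weak broad over weak narrow density was 1.88 and 1.90 in the SP1_PB libraries and 1.35, 1.49 and 1.35 in the WT_PB libraries. The SP1_PB over WT_PB ratio was thus 1.35 times as high at weak broad peaks inside (1.13 to 1.62) and 1.48 times as high within 1 kb (1.33 to 1.64), each with exact permutation p = 0.1. In the flanks alone the factor was 1.25 (1.08 to 1.45). The windows within 1 kb differed in makeup. The inside of the peaks was 1.95 of 4.64 Mb at weak broad and 7.97 of 30.6 Mb at weak narrow peaks. The factor within 1 kb includes this difference and lay above both of its parts. Weak narrow peaks also had lower scores, with a median of 270.29, and with their scores weighted to those of the weak broad peaks the factor within 1 kb was 1.44 (1.23 to 1.67). That weighting was chosen after the data had been seen, and it did not match the makeup of the windows.

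The exact permutation p-values given in this report come from 11 tests over libraries, and none could pass 0.05. Further such tests, for other classes, for contrasts of the flanks and for the alternatives, were computed and are not among the 11. After Benjamini-Hochberg adjustment over the 11, the exact p of 0.1 became 0.138, that of 0.2 became 0.22 and that of 0.7 remained 0.7.

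**Figure D2:**
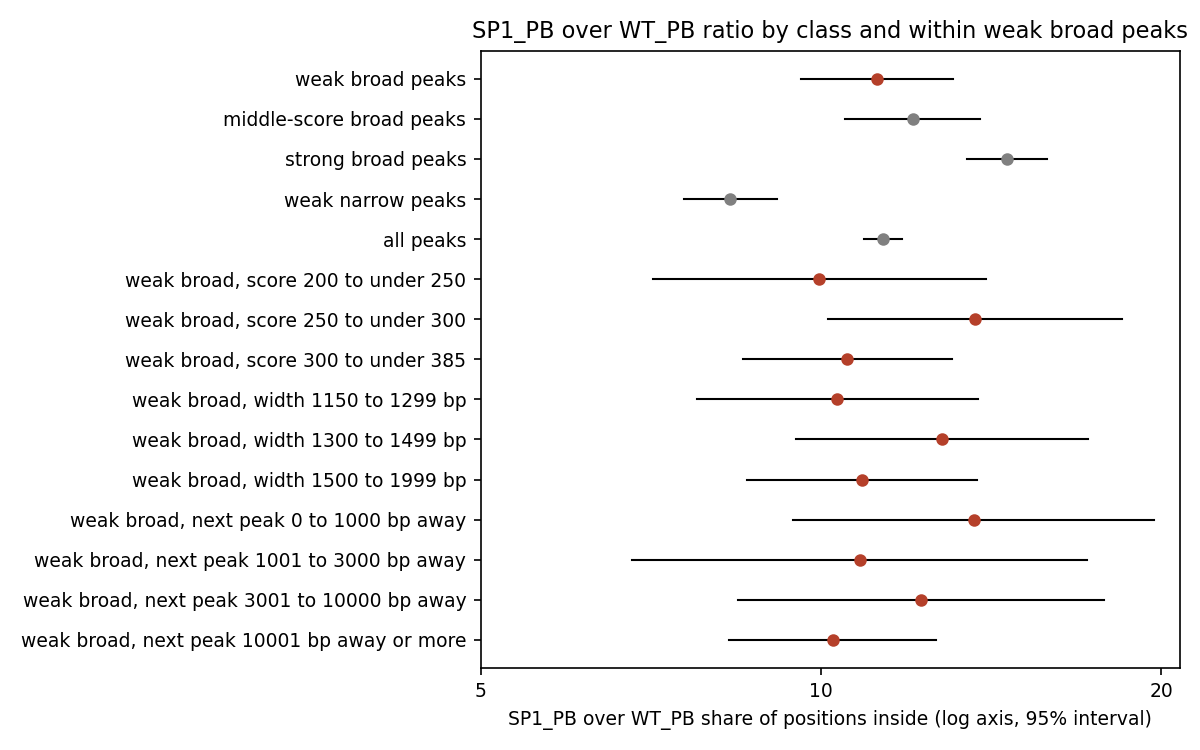
Ratio of the SP1_PB to the WT_PB share of positions inside peaks (log axis) with its 95% interval for counting error, by class of peak and for weak broad peaks divided by score, by width and by distance to the next peak. The 10 divisions of the weak broad peaks have overlapping intervals, from a ratio of 9.96 to 13.7.

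The density at the centre of the weak broad peaks was below that from 500 to 750 bp away in all 5 libraries, and insertions of the fusion lay closer to it than those of the wild-type transposase. Up to 250 bp from the centre the SP1_PB density was 50.7 and 43.7, against 3.25, 3.06 and 4.61 in the WT_PB libraries. In both SP1_PB libraries the density was highest from 500 to 750 bp from the centre, at 106 and 95.6, the step that holds the edge of a peak of median width. In all 3 WT_PB libraries it was highest one step farther out, from 750 to 1000 bp, at 16.8, 14.4 and 17.4. The mean at these maxima was 101 ± 7.44 for SP1_PB (SD, n = 2) and 16.2 ± 1.59 for WT_PB (SD, n = 3). Other peaks nearby were not removed from this profile. The number of TTAA sites along it was not analysed here.

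Of the positions inside weak broad peaks, 38.0% (32.4 to 43.8) and 40.7% (34.3 to 47.3) lay in the middle 50% of the peak's width in the SP1_PB libraries. In the WT_PB libraries the shares were 26.9%, 18.9% and 36.1%, on 72 to 90 positions each. All 5 shares were below the 50% that an even spread would give. The SP1_PB libraries lay above the WT_PB libraries, with WT_PB replicate 3 close to them (exact permutation p = 0.2). Strong broad peaks showed the same order with narrower intervals, at 34.9% and 36.6% in SP1_PB and 17.9% to 22.9% in WT_PB.

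**Figure D3:**
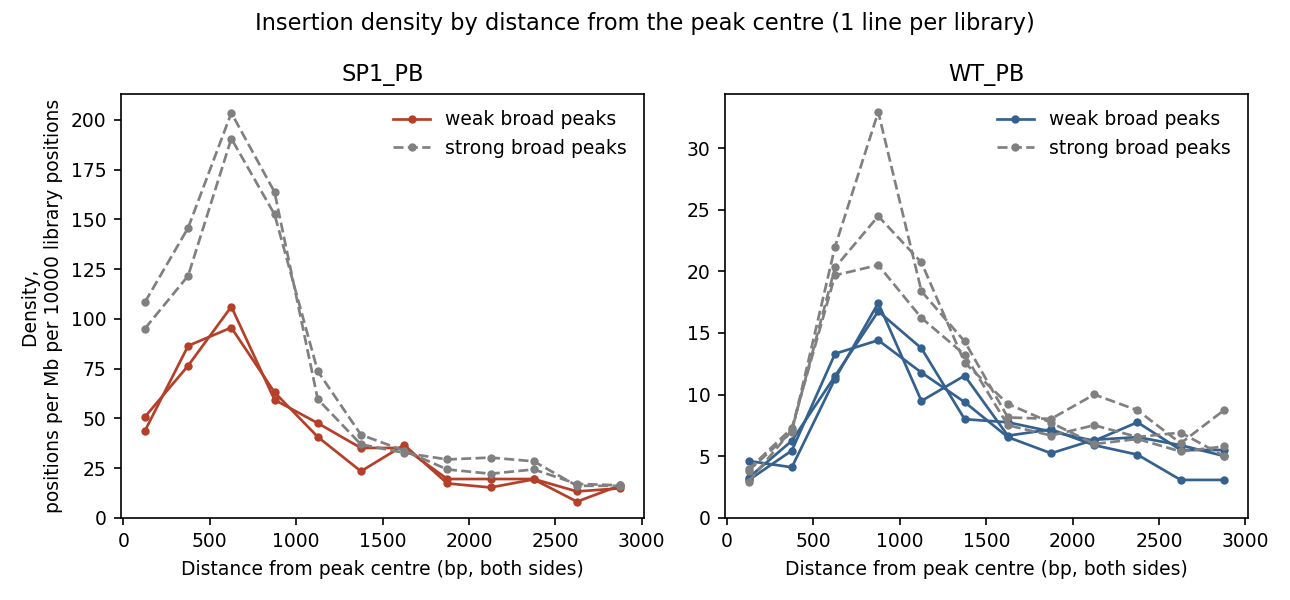
Density of insertion positions (positions per Mb per 10000 library positions) by distance from the peak centre in steps of 250 bp, both sides added, with SP1_PB left and WT_PB right on axes of different height and 1 line per library. Solid lines are weak broad peaks and dashed grey lines strong broad peaks. At weak broad peaks SP1_PB is highest at 500 to 750 bp and WT_PB at 750 to 1000 bp.

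Moving away from the edge of a weak broad peak, and leaving out the inside of all peaks, the SP1_PB density fell step by step. The mean was 69.0 up to 250 bp from the edge, 43.4 from there to 500 bp, 27.8 to 1000 bp, 15.8 to 2000 bp and 11.3 to 5000 bp. The WT_PB mean over the same steps was 16.1, 13, 9.76, 6.17 and 4.07, so its highest value lay just outside the edge and not inside. The ratio of shares was 4.33 (3.50 to 5.34) in the first step and 3.37, 2.93, 2.58 and 2.77 in the next 4. In the step from 2 to 5 kb it was 2.77 (2.39 to 3.20) around weak broad peaks and 1.85 (1.68 to 2.05) around strong broad peaks. In the first 250 bp the order was the other way, with 4.33 against 6.05 (5.47 to 6.69). These steps were described and not tested.

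Among the weak broad peaks the SP1_PB density ranged more widely with the distance to the next peak than with score or width. Of the 1359, 315 (23.2%) had another peak within 1 kb, 529 (38.9%) within 3 kb, and 528 (38.9%) had none within 10 kb. The SP1_PB density inside the 528 was 106 and 89.2, and that of WT_PB 9.95, 10.1 and 8.80. Where the next peak lay within 1 kb, the SP1_PB density was 57.2 and 76.1 and the WT_PB density 3.74, 4.24 and 6.52. In both groups the isolated peaks had the higher densities in every library. The SP1_PB over WT_PB ratio was 10.2 (8.29 to 12.6) in the isolated peaks and 13.6 (9.45 to 19.7) in those with a neighbour within 1 kb. The intervals overlapped and were wide.

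Both the SP1_PB and the WT_PB density were lower in members with a strong peak nearby, for SP1_PB by 75.2 against 75.8 in the closest pair. The 139 members with a strong peak, of any width, within 3 kb had an SP1_PB density inside of 57.7 and 75.2, and the other 1220 had 76.3 and 75.8. The WT_PB density was 3.36, 5.87 and 4.30 in the 139, on 17 positions, and 7.18, 6.95 and 6.66 in the 1220. The SP1_PB over WT_PB ratio was 14.3 (8.15 to 25) beside a strong peak and 11 (9.35 to 12.9) elsewhere, with overlapping intervals. By score, the mean SP1_PB density was 61.1 ± 2.22 at scores of 200 to 250, 77.3 ± 10.1 at 250 to 300 and 80.8 ± 7.18 from 300 up (SD, n = 2). By width it was 68.9 ± 5.34 in the 479 narrowest members, 72.3 ± 3.65 in the 428 of 1300 bp to below 1500 bp and 81.9 ± 9.22 in the 452 of 1500 bp or more (SD, n = 2). Both libraries lay lower in the lowest score range than in the next, and lower in the middle than in the widest width range, there by 74.9 against 75.3 for the closest pair. The libraries of the other neighbouring ranges overlapped.

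Just inside the score limit, the peaks with scores of 384.9 and 384.58 had no position of any library within 1 kb, and neither had the 2 just outside it, with scores of 385.11 and 385.14. Of the low-score peaks just inside the lower width limit there were 66, with 27 SP1_PB and 31 WT_PB positions within 1 kb, and 70 just outside it had 44 SP1_PB and 43 WT_PB positions. The 66 widest members, of 1900 bp or more, had 37 SP1_PB and 39 WT_PB positions, and the 46 low-score peaks just outside the upper limit had 33 SP1_PB and 30 WT_PB positions.

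Most weak broad peaks carried no fusion insertion at this depth. In SP1_PB replicate 1 there were 294 members (21.6%) with a position within 1 kb, and in replicate 2 there were 225 (16.6%). Both libraries marked 147 of them, which is 147 of the 294 marked by replicate 1 and 65.3% of those marked by replicate 2. The remaining 987 (72.6%) had none in either library. Some WT_PB position lay near 414 members (30.5%), 206 of which also had one of SP1_PB, and 779 (57.3%) had no position at all.

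With every library reduced to 14467 positions, 17.5% ± 1.33 of weak broad peaks had an SP1_PB position within 1 kb (SD, n = 2) and 4.42% ± 0.106 a WT_PB position (SD, n = 3). The library values were 18.4% and 16.6% for SP1_PB, against 4.45%, 4.30% and 4.50% for WT_PB (exact permutation p = 0.1). The SP1_PB share was 3.96 times the WT_PB share, and with positions inside peaks alone it was 7.84 times. At the same depth SP1_PB marked 30.0% ± 0.895 of strong broad and 7.55% ± 0.334 of weak narrow peaks, and WT_PB 6.43% ± 0.534 and 2.59% ± 0.193. The number of possible sites at each peak was not analysed here, so a peak without an insertion is not shown to lack SP1 visits.

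**Figure D4:**
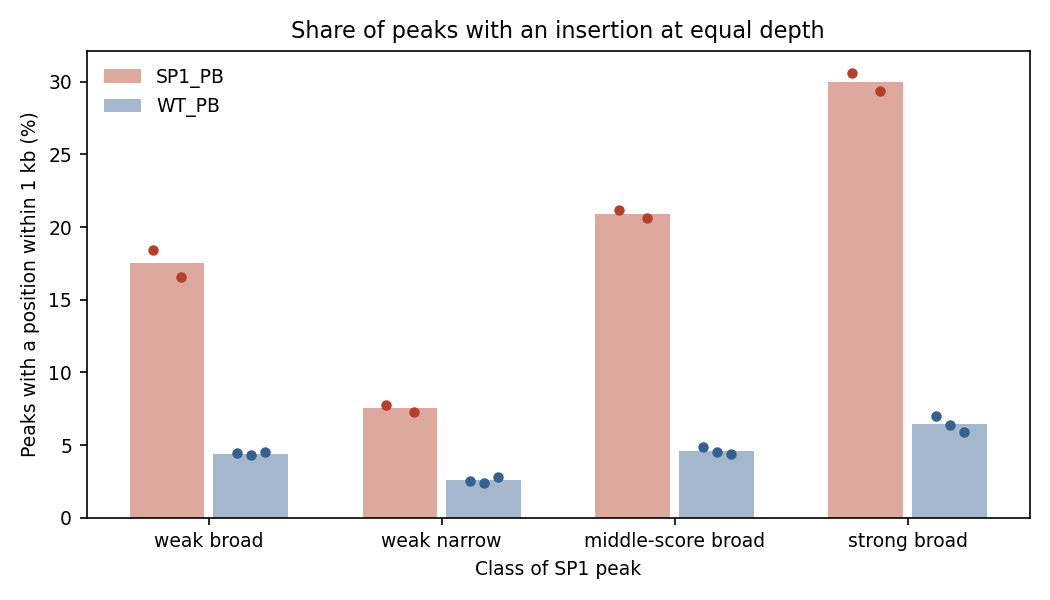
Percentage of peaks with at least 1 insertion position within 1 kb when each library is reduced to 14467 positions, by class of peak, with SP1_PB left of WT_PB, bars for the mean and 1 point per library. At weak broad peaks the 2 SP1_PB libraries stand at 18.4% and 16.6% and the 3 WT_PB libraries at 4.30% to 4.50%.

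Identical positions in both SP1_PB libraries were frequent inside the weak broad peaks. There were 91, which was 33.2% of the positions of replicate 1 and 42.5% of those of replicate 2 inside them, against 15.4% and 20.1% over the whole libraries. Within 1 kb the shares were 25% and 34.4% at weak broad and 29.8% and 36.5% at strong broad peaks. Whether such positions are repeated insertions at 1 site or carry-over between the libraries was not tested. Without positions found in more than 1 library the SP1_PB over WT_PB ratio inside was 12.1 (9.94 to 14.7), and 71 members were marked by both SP1_PB libraries.

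Insertions in these peaks carried more reads than those far from peaks, as did insertions in strong broad peaks. The median was 12 and 29.5 reads per position inside weak broad peaks in the SP1_PB libraries, while positions over 1 kb from any peak had 5 and 11. The WT_PB medians were 5.5, 7.5 and 11.5 inside and 3, 4 and 3 far from peaks. In each of the 5 libraries the median inside was higher than far from peaks. Inside strong broad peaks it was 11 and 27.5 in the SP1_PB libraries and 9, 12.5 and 11 in the WT_PB libraries, also above the medians far from peaks. Counted on positions with at least 2 reads, the SP1_PB over WT_PB ratio inside was 10.7 (9.03 to 12.8).

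Few members held many insertions. There were 50 members (3.68%) with 5 or more SP1_PB positions within 1 kb, against 7.16% of strong broad and 1.07% of weak narrow peaks. All 50 were marked by both SP1_PB libraries. Neighbouring members can count the same positions. With positions within 3 bp merged, 24 of the 50 still had 5 or more. Of the 50, 16 had no WT_PB position within 1 kb, and of all weak broad peaks 69.5% had none. The largest number at 1 member was 10 for SP1_PB and 9 for WT_PB, and 6 members had 5 or more of both.

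The 10 members with the most SP1_PB positions were picked by that count, so their values only describe them, and their ratios tend to overstate the excess. MACS_peak_14011 on chromosome 19, 43518037 to 43519866, with a score of 271.02, had 7 and 3 SP1_PB positions within 1 kb, 9 of them inside, and no WT_PB position. With a floor of 3 WT_PB positions over the group put in place of none, the ratio of shares would be 18.4. That value leaves out the counting error of the SP1_PB positions and is no lower limit. After merging those within 3 bp, 9 SP1_PB positions remained. This member lay 15049 bp from the next peak, so its insertions belong to no other.

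Merging changed other leading members far more. MACS_peak_26089 on chromosome 9, 130975978 to 130977664, with a score of 366.66, had 3 and 7 SP1_PB positions, all inside it, and 0, 0 and 2 WT_PB positions within 1 kb. After merging, each SP1_PB library had 1. Its neighbour MACS_peak_26090, 293 bp away at 130977958 to 130979740, had the same 10 SP1_PB positions within 1 kb and none inside, so both entries rest on 1 stretch of neighbouring positions per library.

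Members with very low scores were among the leading ones. MACS_peak_8783 on chromosome 16, 5087136 to 5088933, with a score of 205.33, had 4 and 6 SP1_PB positions against 0, 1 and 1 of WT_PB, a ratio of 27.6 (exact interval 5.87 to 259). After merging 8 SP1_PB positions were left. MACS_peak_17008 on chromosome 20, 42947250 to 42948462, with a score of 209, had 4 and 5 SP1_PB positions and none of WT_PB. The same floor of 3 WT_PB positions would give a ratio of 16.5, again without the counting error of the SP1_PB positions. Only 1 of its 9 SP1_PB positions lay inside the peak, and 6 were left after merging. Both scores are near the lowest score of the weak broad peaks.

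Further leading members lay on 5 chromosomes. MACS_peak_12457 on chromosome 18, 72331599 to 72333298, had 5 and 4 SP1_PB positions against 1, 1 and 0. MACS_peak_15378 on chromosome 2, 63921103 to 63922645, lay 176636 bp from the next peak and had 8 and 1 SP1_PB positions against 0, 1 and 0, so replicate 1 carried nearly all of its count. MACS_peak_19011 on chromosome 3, 33130086 to 33131323, had 6 and 2 against 1, 2 and 0. MACS_peak_2142 on chromosome 1, 199884933 to 199886540, had 4 and 4 against none and lay 168 bp from another peak. MACS_peak_5331 on chromosome 12, 10256044 to 10257215, had 3 and 4 against 0, 1 and 1 and lay 258376 bp from the next peak. After merging within 3 bp these members had 5, 6, 7, 4 and 5 SP1_PB positions.

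**Figure D5:**
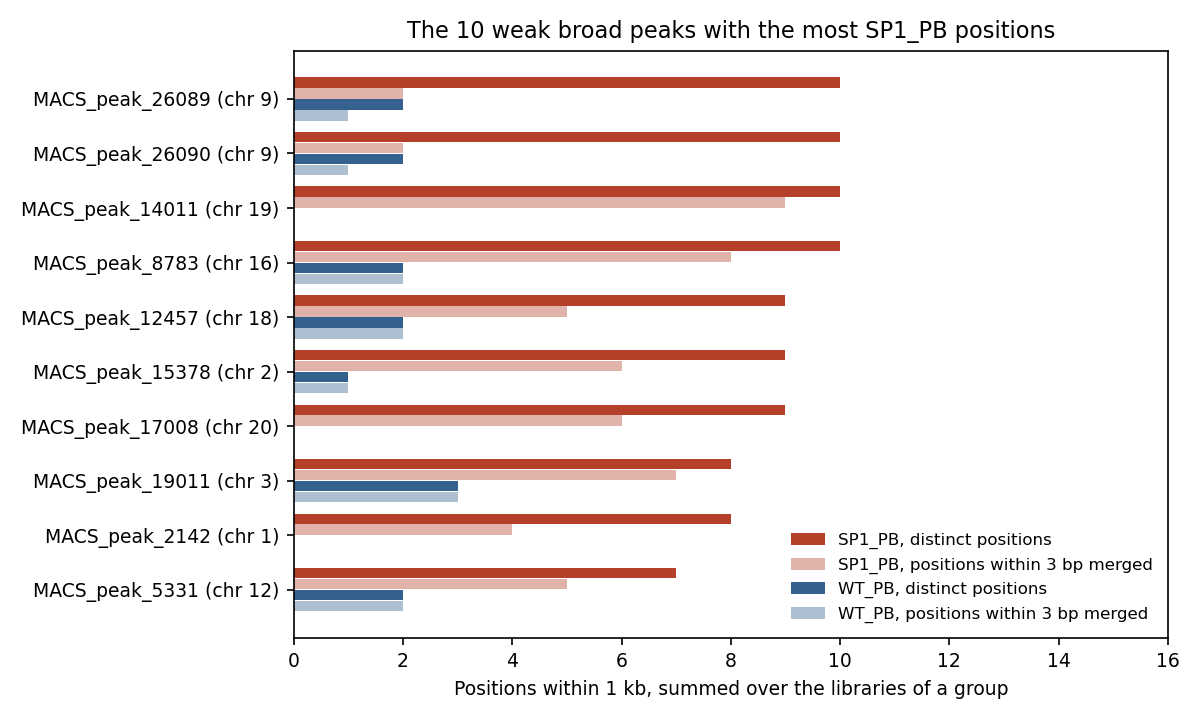
Number of positions within 1 kb, summed over the libraries of a group, for the 10 weak broad peaks with the most SP1_PB positions, as distinct positions (dark) and with positions within 3 bp merged (light), SP1_PB above WT_PB. After merging, MACS_peak_26089 and MACS_peak_26090 have 2 SP1_PB positions and MACS_peak_14011 has 9.

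The 5 members with the most WT_PB positions were also picked by their count. MACS_peak_15934 on chromosome 2, 156906145 to 156907641, had 3 and 2 SP1_PB positions against 3, 2 and 4 of WT_PB. All 5 of its SP1_PB positions and none of its WT_PB positions lay inside the peak. MACS_peak_24856 on chromosome 8, 104379769 to 104380995, had 1 and 0 against 5, 4 and 0, and 6 of those 9 WT_PB positions lay inside it. MACS_peak_11391 on chromosome 17, 59273248 to 59274435, had 3 and 2 against 4, 4 and 1. MACS_peak_7596 on chromosome 15, 28550142 to 28551325, had 1 and 3 against 2, 2 and 4. MACS_peak_11325 on chromosome 17, 55051287 to 55052633, had 2 and 0 against 4, 2 and 2. The exact intervals of all 5 SP1_PB over WT_PB ratios included 1.

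A fit over all peaks, edgeR's quasi-likelihood test on positions within 1 kb with Benjamini-Hochberg adjustment, tested the 1985 peaks with at least 5 positions over the libraries. It called 59 of the 117 weak broad peaks tested (50.4%) higher in SP1_PB at an adjusted p under 0.05, and 50.8% of all peaks tested were called so. The share of weak broad peaks is near this background and is not a result about them. Peaks passed the filter partly through the group in which they are high. Of the strong broad peaks tested, 254 of 445 (57.1%) were called. None was called lower among the 1985 peaks, where 1 had an unadjusted p under 0.05 in that direction, and DESeq2 called none lower. The edgeR fit called 1 peak lower with at least 10 positions required and 1 without WT_PB replicate 3, in neither case a weak broad peak. The fitted log2 fold change had a median of 2.75 over the weak broad peaks tested, 3.01 over the strong broad peaks tested and 2.75 over all peaks tested.

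The 10 weak broad peaks ranked first by this fit all reached 5 positions through SP1_PB alone, so the filter itself favours their difference, and their p-values are not given. Most are among the leading members above. A further 3 had 7 SP1_PB positions within 1 kb and no WT_PB position. They were MACS_peak_12322 on chromosome 18, 32019897 to 32021145, MACS_peak_17233 on chromosome 20, 60374656 to 60376427, and MACS_peak_26718 on chromosome X, 3640563 to 3642156. MACS_peak_12322 lay 13 bp from another peak. MACS_peak_26718 had no position inside the peak and 3 SP1_PB positions after merging. With 1 insertion per 1 kb cluster the edgeR fit called no peak of any class. An unadjusted p under 0.05 was reached there by 10 of the 35 weak broad peaks tested and by 158 of all 529 tested. With TMM factors the edgeR fit also called no peak of any class. There 21 of the 117 weak broad peaks tested had an unadjusted p under 0.05, 17 of them higher in SP1_PB. Of all 1985 peaks tested 454 had one, 315 of them higher in SP1_PB. DESeq2 called 24 of 59 (40.7%), against 42.6% of all peaks to which it gave an adjusted p. With a replicate block edgeR called 25 of 117 (21.4%), against 19.1% of all peaks tested.

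The largest shares of the weak broad peaks were 10.3% on chromosome 1, 9.12% on chromosome 19, 8.90% on chromosome 17 and 8.83% on chromosome 16. Those chromosomes held 9.34%, 8.86%, 8.03% and 6.24% of all peaks. Chromosome 8 also held a larger share of the weak broad peaks than of all peaks, 5.52% against 3.89%. Chromosome 6 held a smaller one, 2.65% against 3.88%, as did chromosome 4, 2.21% against 3.05%. These differences were not tested. Over the 20 chromosomes with at least 20 members, the SP1_PB positions within 1 kb ranged from 0.310 per member on chromosome 7 to 1.57 on chromosome 18, and the WT_PB positions from 0.246 on chromosome 22 to 1.43 on chromosome 4. On chromosome 19 the SP1_PB density inside its 124 members was 78.1 and 62.6, against 3.85, 4.20 and 3.95 for WT_PB. Elsewhere it was 74.0 and 77.0, against 7.08, 7.10 and 6.67. The SP1_PB density on chromosome 19 thus overlapped that elsewhere, while the WT_PB density there was lower in all 3 libraries, on 13 positions. Strong broad peaks showed the same order for WT_PB, at 6.92, 4.74 and 4.05 on chromosome 19 and 11.5, 9.42 and 9.91 elsewhere.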

How the data were processed

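The members, their limits and the lists used were chosen with earlier results of these data known. Weak broad peaks have a score under 385 and a width of 1150 to 1999 bp, strong broad peaks the same widths and a score of 597 or more. Each line of an insertion file gives chromosome, position and the read count there, deposited without normalization from reads aligned to hg18 with bowtie, per the deposited readme (version 0.12.7 per the submitters' processing notes). Repeated lines of a position were summed, and each distinct position counted once. Chromosome codes 23 and 24 were read as X and Y. The strand is not given. The peak list is the authors' MACS output with a score per peak, per the deposited readme, and neither the scale of that score nor the threshold is given in the sources used here. RPKM values per gene were made by the authors with TopHat and Cufflinks, per the deposited readme, and served only to check the cell line.

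Positions were counted inside and within 1 kb of each peak, in 1-based coordinates. Shares have 95% Wilson intervals, ratios of pooled shares log-normal intervals and ratios at single peaks exact binomial intervals. They cover counting error only, as the PCR reads carry no molecular identifiers and need not be separate molecules. Groups were compared with an exact two-sided permutation test over 5 libraries, and a difference was called when the 2 SP1_PB libraries did not overlap the 3 WT_PB libraries. The share of peaks marked at equal depth was computed from the hypergeometric distribution. The fit over all peaks used edgeR 4.0.16 with library totals as library sizes, and DESeq2 1.42.0 as an alternative, in R 4.3.3, and was tested on simulated counts. Named peaks were the 10 with the most SP1_PB and the 5 with the most WT_PB positions, the 10 with the smallest edgeR p, and those at the score limit. Alternatives changed the merging of positions, the reads required, the limits of score and distance, the weighting of widths, neighbouring peaks, the fit and the libraries left out. No hg18 genome or annotation was used, so sequences, TTAA sites and genes at the peaks were not analysed here.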

Additional observations from a re-analysis of the deposited data

How the results depend on the processing

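The 7 comparisons of shares were recomputed under 96 alternatives, and in 95 of them the result was unchanged. Unchanged means that the direction held and the SP1_PB and WT_PB libraries stayed apart. For the replicate block it means only that the same-numbered pairs all kept that direction, without WT_PB replicate 3. None reversed. The exception was weak against strong broad peaks inside, where the factor was 0.819 with weak scores under 300 and the libraries overlapped. Leaving out 1 library at a time gave ratios of 11 to 11.4 inside weak broad peaks, 5.77 to 6.09 within 1 kb and 3.16 to 3.81 in the flanks. The weak over strong factor ran from 0.725 to 0.813 inside and from 0.748 to 0.840 within 1 kb, the weak broad over weak narrow factor from 1.42 to 1.51, and the equal-depth ratio from 3.75 to 4.0. The ratio inside was 9.63 with 1 insertion per 1 kb cluster and 10.7 for peaks with no other peak within 3 kb. The count of weak broad peaks called by edgeR, 59, was not stable. With TMM factors, which centre the fit on the peaks themselves, and with 1 insertion per 1 kb cluster, no listed peak was called. The count of weak broad peaks called was thus 0 in either setting. It was 13 of 18 (72.2%, against 72.9% of all peaks tested) with at least 10 positions, and 9 of 40 (22.5%, against 32.1%) without positions in more than 1 library. It was 24 of 59 (40.7%, against 42.6%) with DESeq2, whose adjusted p was missing for 961 peaks. It was 47 of 87 (54.0%, against 51.3%) with positions within 3 bp merged and 74 of 580 (12.8%, against 12.3%) with every peak that had a position. It was 12 of 54 (22.2%, against 19.2%) without SP1_PB replicate 1 and 13 of 70 (18.6%, against 24.5%) without SP1_PB replicate 2, and over all libraries left out it ran from 12 to 59. With a replicate block it was 25 of 117 (21.4%, against 19.1%). These counts are no result about the weak broad peaks. Whether the shared replicate numbers pair the libraries could not be settled. The correlations of the deviations from the group means were -0.0168 and -0.0288 for the same-numbered libraries. With only 2 SP1_PB libraries these deviations mirror each other, so each correlation fixes another of opposite sign. Means over same-numbered pairs (replicate block) gave a ratio of 11 inside and 5.96 within 1 kb. Depth limits single peaks, since most held fewer than 5 positions.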
